A study of Mus musculus with 6 samples.

Results

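S100 calcium-binding proteins are small cytosolic proteins that bind calcium through a pair of EF-hand loops and then dock onto partner proteins. In the gut they divide broadly by cell type. S100a10, S100a11, S100a14 and S100a16 are made in epithelium, S100g is the vitamin D-dependent calcium buffer of absorptive cells, and S100a8 with S100a9 form calprotectin, the antimicrobial complex of neutrophils and monocytes that is measured in stool as a marker of colitis. S100a4 is a protein of leukocytes and fibroblasts, and S100a6 and S100a13 are made in many cell types. The genes were taken from the deposited table as the rows whose symbol equals one of the 10 names, and all 10 were found among 36977 rows. Levels are in FPKM, a fragment count scaled by transcript length and library size. All 10 passed the filter of 0.5 FPKM on the mean over the libraries, with 14611 genes tested in all.

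The samples were bulk RNA-seq libraries of colonic tissue from wild-type (WT) mice with colitis. The DSS+DCA group held 3 libraries, numbered 1, 2 and 4, from mice given dextran sodium sulfate (DSS), a polysaccharide that damages the colonic lining, and deoxycholic acid (DCA), a secondary bile acid, by enema. The DSS group held 3 libraries with the same numbers from mice labelled with DSS alone. The treatment protocol, 2% DSS for 7 days and then the enema, is worded alike for every sample. The sources used here give neither the age of the mice, nor what the DSS mice received in place of DCA, nor whether a library is 1 animal. The p-values therefore measure the spread between these libraries. The comparison asks how S100 transcripts differ between inflamed colon with and without the bile acid.

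Several properties of the libraries bear on every value. Sequencing depth is unknown, because whole reads could not be recovered from the FPKM. Mitochondrial transcripts took 30.5%, 47.6% and 46.7% of summed FPKM in DSS+DCA libraries 1, 2 and 4, against 31.4%, 29.4% and 30.3% in DSS libraries 1, 2 and 4. Nuclear protein-coding genes took 46.2%, 21.0% and 24.3% in the DSS+DCA libraries and 45.0%, 46.0% and 46.2% in the DSS libraries. Their share was thus smaller in DSS+DCA libraries 2 and 4 than in the other libraries. DSS library 4 lay close to the mean of DSS libraries 1 and 2: set against a weighted mean of DSS library 1 (weight 0.52) and DSS library 2, it had a median deviation of 0.0477 log2 units over 1118 protein-coding genes averaging 30 FPKM or more, against 0.203 between DSS libraries 1 and 2 themselves. For 7 of the 10 S100 genes its value fell between those of the other DSS libraries. The label gives intestinal epithelial cells, but the summed FPKM of 8 smooth muscle markers was 1893, 114 and 1316 in the DSS+DCA libraries and 44.3, 831 and 417 in the DSS libraries. In bulk tissue, fewer cells of a type and less RNA per cell cannot be told apart.

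Of the 10 genes, 9 lie on mouse chromosome 3 (GRCm38, positions from GENCODE M21), in the block known as the epidermal differentiation complex. S100a13 (90514435-90524581), S100a14 (90526856-90528837), S100a16 (90537254-90543151), S100a4 (90603771-90606045), S100a6 (90612882-90624181) and S100a8 (90668978-90670035) follow each other on the plus strand. S100a9 (90692632-90695721) is on the minus strand. S100a11 (93520488-93526287) and S100a10 (93555080-93564643), both on the plus strand, lie farther along. S100g is on chromosome X (162961992-162964599, minus strand), inside the span of Ctps2 on the opposite strand. Because the sources do not say whether counting used strand, reads of S100g and Ctps2 may not be told apart. S100a4 overlaps the predicted gene Gm42674 on the same strand, where strand would not tell their reads apart.

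RefSeq (GRCm38.p6) gave start sites for 8 of the 10 genes, with none for S100a10 and S100a14. The promoter windows of the 3 leukocyte genes, of S100g and of S100a11 are printed here because together they hold most of the motif matches, each as 220 bases before the start and 30 from it. Capitals mark matches, on either strand, to TATAAA (the TATA box), CCAAT (the box bound by NF-Y), GGGCGG (the GC box), TGANTCA (AP-1) or TTNNGCAA (C/EBP core).
S100a4, chr3:90603550-90603799, plus strand: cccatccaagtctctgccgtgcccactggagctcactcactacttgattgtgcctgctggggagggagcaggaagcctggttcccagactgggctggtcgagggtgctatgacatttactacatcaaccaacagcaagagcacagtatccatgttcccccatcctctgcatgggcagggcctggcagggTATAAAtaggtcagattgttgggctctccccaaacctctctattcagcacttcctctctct
S100a8, chr3:90668851-90669100, plus strand: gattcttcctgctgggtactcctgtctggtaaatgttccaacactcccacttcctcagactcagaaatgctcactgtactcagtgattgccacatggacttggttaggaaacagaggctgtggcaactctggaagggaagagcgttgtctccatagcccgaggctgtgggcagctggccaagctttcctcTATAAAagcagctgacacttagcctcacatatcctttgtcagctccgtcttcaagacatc
S100a9, chr3:90695692-90695941, minus strand: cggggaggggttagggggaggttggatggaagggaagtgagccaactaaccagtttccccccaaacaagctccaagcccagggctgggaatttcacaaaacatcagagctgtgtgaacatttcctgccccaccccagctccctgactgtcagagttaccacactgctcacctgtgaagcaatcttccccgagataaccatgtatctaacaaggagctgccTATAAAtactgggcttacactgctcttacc
S100g, chrX:162964570-162964819, minus strand: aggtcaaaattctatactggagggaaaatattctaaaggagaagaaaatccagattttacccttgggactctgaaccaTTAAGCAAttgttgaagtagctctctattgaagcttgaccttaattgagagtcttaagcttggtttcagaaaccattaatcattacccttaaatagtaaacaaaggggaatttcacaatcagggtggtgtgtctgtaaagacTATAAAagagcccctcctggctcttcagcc
S100a11, chr3:93520276-93520525, plus strand: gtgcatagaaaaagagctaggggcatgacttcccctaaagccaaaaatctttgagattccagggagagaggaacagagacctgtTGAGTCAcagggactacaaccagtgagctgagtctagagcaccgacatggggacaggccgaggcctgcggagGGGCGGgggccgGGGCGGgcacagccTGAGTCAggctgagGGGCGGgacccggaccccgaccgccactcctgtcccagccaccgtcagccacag

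Of these letters TATAAA stood in the window of each leukocyte gene. In S100a4 it lay at -31 to -26 and in S100a8 at -30 to -25, the usual distance of a TATA box, where the start is position 0. In S100a9 and S100g it lay at 0 to 5, on the annotated start itself. The window of S100g also held TTNNGCAA at -142 to -135. S100a11 had no TATAAA, but 3 GGGCGG (from -64, -52 and -24) and 2 TGANTCA (from -136 and -38). Among all 32851 RefSeq windows of this length, TATAAA stood in 11.7%, CCAAT in 33.5%, GGGCGG in 33.8%, TGANTCA in 6.68% and TTNNGCAA in 9.10%. The second start of S100a16 held 1 GGGCGG (-30 to -25) and 1 TGANTCA (-192 to -186). No match was found in the windows of S100a6, S100a13 or the first start of S100a16. These matches describe letters in a window and are no evidence of binding.

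S100a13 is transcribed away from S100a1, an S100 gene outside the 10 that is best known from heart and skeletal muscle. Their GENCODE starts are 42 bases apart, and the interval between their RefSeq starts is shown because both genes are read outward from it.
S100a1 and S100a13, chr3:90514331-90514434, plus strand: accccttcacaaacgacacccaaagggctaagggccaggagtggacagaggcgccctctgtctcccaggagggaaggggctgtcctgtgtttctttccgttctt

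None of the 5 motifs matched in these 104 bases. Among all promoter intervals of that length, TATAAA stood in 5.69%, CCAAT in 19.4%, GGGCGG in 25.1%, TGANTCA in 2.87% and TTNNGCAA in 3.59%.

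The 10 genes covered a range from among the most abundant transcripts of the tissue to ones near or below the middle of the tested genes. S100a6, S100a11 and S100a10 stood at the 99.5th, 99.4th and 99.3rd percentile of mean FPKM among the tested genes. S100g, S100a16, S100a13 and S100a14 followed at percentiles 95.5, 94.5, 93.7 and 89.8. The leukocyte genes came last, with S100a4 at percentile 58.1, S100a9 at 55.5 and S100a8 at 35.2. The steps from S100a10 to S100g, from S100a13 to S100a14, from S100a14 to S100a4 and from S100a9 to S100a8 held in 6 of 6 libraries. S100a6 was above S100a11 in 4 of 6 libraries, S100a11 above S100a10 in 5, S100g above S100a16 in 4, S100a16 above S100a13 in 5 and S100a4 above S100a9 in 3, so these neighbours were not ordered beyond their spread.

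**Figure D1:**
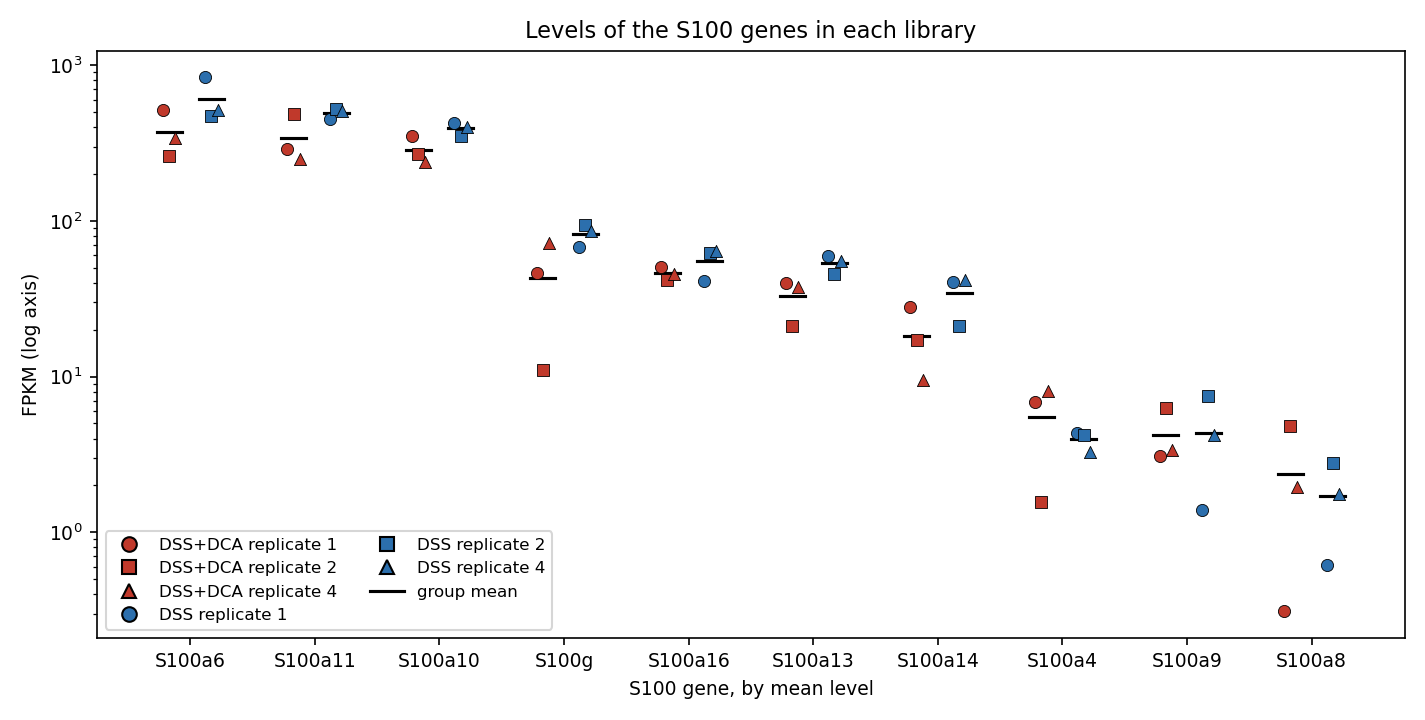
FPKM (log axis) of the 10 S100 genes in each library, genes ordered by mean level, with DSS+DCA libraries in red to the left of DSS libraries in blue, a symbol for each replicate number and a bar for the group mean. S100a13 is the one gene whose DSS+DCA values (21.0 to 40.1) all lie below its DSS values (45.5 to 59.4).

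No S100 gene was called different between DSS+DCA and DSS. At a Benjamini-Hochberg adjusted p under 0.05 over all tested genes (limma on log2(FPKM + 1)) 0 of the 10 passed, where 0.561% of all tested genes did (82 genes, 0.13% higher and 0.431% lower). At an unadjusted p under 0.05, 1 of the 10 passed, S100a13, which was lower, against 16.7% of all tested genes (4.26% higher, 12.4% lower). The libraries of the groups did not overlap for 1 of the 10, again S100a13, which was lower, where 23.6% of tested genes were separated, 17.8% in that direction and 5.8% in the other. The 1 in 10 S100 genes is below the background share in either case. Fitted changes were below 0 for 7 of the 10 genes and for 60.5% of all tested genes. The median log2 change was -0.53 for the 10 genes and -0.09 for all tested genes. Among tested genes averaging 10 FPKM or more, 2916 of 3577 had a fitted change below 0 and the median was -0.33. The 7 S100 genes above that level had a median of -0.71. Without DSS library 4 the median of the 10 S100 genes was -0.51 and 0 were called, and none of the 82 calls over all genes, Cd177, Nucb2, Cd36 and Dcn among them, was made without DSS library 1 or without DSS library 4.

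The epithelial S100 genes had the lower mean in DSS+DCA libraries in 5 of 5 cases, with a median log2 change of -0.60 and none past the threshold. S100a10, the partner that joins annexin A2 in a tetramer at the plasma membrane, had 350.0, 269 and 239 FPKM in DSS+DCA libraries 1, 2 and 4, against 426, 349 and 403 FPKM in DSS libraries 1, 2 and 4. The groups touched at a single point, since the highest DSS+DCA value, 350.0, barely exceeded the lowest DSS value, 349. Means were 286 ± 57.5 FPKM in DSS+DCA and 393 ± 39.6 FPKM in DSS (SD, n = 3 each), a log2 change of -0.47 ± 0.23 (SE) with a limma adjusted p of 0.346.

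S100a11, which binds annexin A1 and is involved in membrane repair and keratinocyte growth control, had 288, 483 and 249 FPKM in the DSS+DCA libraries, against 452, 522 and 509 FPKM in the DSS libraries. DSS+DCA library 2 reached the DSS range while the other two stayed well under it. Its mean was 339.9 ± 126 FPKM in DSS+DCA and 494 ± 37.5 FPKM in DSS (SD, n = 3 each). The log2 change was -0.60 ± 0.29 (SE), with a limma adjusted p of 0.348.

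S100a14, a membrane-associated epithelial protein, had 28.0, 17.2 and 9.45 FPKM in the DSS+DCA libraries, against 40.4, 21.2 and 41.8 FPKM in the DSS libraries. DSS+DCA library 4 was the lowest of all, and DSS library 2 lay within the DSS+DCA range. Its log2 change was -0.94 ± 0.43 (SE), with a limma adjusted p of 0.322. S100a16, a widely made epithelial family member, had 50.3, 42.0 and 45.9 FPKM in the DSS+DCA libraries, against 41.0, 61.9 and 64.1 FPKM in the DSS libraries. DSS library 1 was the lowest of the 6 values, so the groups overlapped. Its log2 change was the nearest to 0 among the epithelial genes, -0.24 ± 0.23 (SE, limma adjusted p = 0.613).

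S100g, calbindin-D9k, which carries calcium across absorptive cells, had 46.6, 11.1 and 71.9 FPKM in the DSS+DCA libraries, against 68.1, 94.4 and 86.1 FPKM in the DSS libraries. Within the DSS+DCA group library 2 was lowest and library 4 reached into the DSS range. Means were 43.2 ± 30.6 FPKM in DSS+DCA and 82.9 ± 13.5 FPKM in DSS (SD, n = 3 each). The log2 change was -1.26 ± 0.62 (SE), with a 95% interval from -2.72 to 0.21 and a limma adjusted p of 0.354. Its size rested on DSS+DCA library 2, without which it was -0.50, and leaving out each library in turn gave -1.79 to -0.50.

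General epithelial markers were set beside these genes. Of 15 such markers, 14 had a fitted change below 0 and 0 were called, with a median log2 change of -0.81. Their summed FPKM was 7291, 4242 and 4819 in the DSS+DCA libraries and 10383, 8611 and 9661 in the DSS libraries. The 4 with the smallest p were the keratins Krt18 (log2 change -0.93, limma adjusted p = 0.104) and Krt19 (-1.08, 0.121), the brush border protein Vil1 (-0.80, 0.139) and the intestinal transcription factor Cdx1 (-0.84, 0.162). The mean log2 level of the 5 epithelial S100 genes minus that of the markers was -1.68, -1.29 and -1.29 in the DSS+DCA libraries and -1.61, -1.40 and -1.33 in the DSS libraries. These differences overlapped between groups. The part of epithelial content in the levels of the S100 genes was not tested.

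The genes of many cell types, S100a6 and S100a13, also had the lower mean in DSS+DCA. S100a6, calcyclin, a protein of proliferating cells and fibroblasts as well as epithelium, had 519.7, 262 and 343 FPKM in the DSS+DCA libraries, against 835, 474 and 516 FPKM in the DSS libraries. DSS+DCA library 1 lay above DSS libraries 2 and 4, so the groups overlapped. Means were 375 ± 132 FPKM in DSS+DCA and 608 ± 198 FPKM in DSS (SD, n = 3 each), a log2 change of -0.71 ± 0.34 (SE) with a limma adjusted p of 0.348.

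S100a13, which takes part in the release of FGF1 and interleukin 1 alpha without a signal peptide, had 40.1, 21.0 and 37.8 FPKM in the DSS+DCA libraries, against 59.4, 45.5 and 55.1 FPKM in the DSS libraries. Each DSS+DCA library lay below each DSS library. Means were 32.9 ± 10.4 FPKM in DSS+DCA and 53.3 ± 7.13 FPKM in DSS (SD, n = 3 each). The log2 change was -0.72 ± 0.28 (SE, 95% interval -1.39 to -0.06), with a limma adjusted p of 0.275. The separation depended on scaling: rescaled to equal summed protein-coding FPKM, S100a13 had 35.5, 29.8 and 48.0 in the DSS+DCA libraries against 52.1, 38.4 and 46.8 in the DSS libraries, and the groups overlapped.

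S100a1, the divergent neighbour, had 138, 61.6 and 112 FPKM in the DSS+DCA libraries, against 188, 154 and 178 FPKM in the DSS libraries. Its groups did not overlap either, and its log2 change was -0.80 ± 0.32 (SE, limma adjusted p = 0.280). After protein-coding rescaling S100a1 too overlapped, with 122, 87.1 and 143 in the DSS+DCA libraries against 165, 129.8 and 152 in the DSS libraries and a log2 change of -0.36. The ratio of S100a13 to S100a1 was 0.290, 0.342 and 0.336 in the DSS+DCA libraries and 0.316, 0.295 and 0.309 in the DSS libraries. This ratio varied by no more than 1.18-fold between the highest and the lowest library. Among 5928 genes averaging 5 FPKM or more, S100a1 was the 4th nearest to S100a13 in its profile over the 6 libraries, at a root mean square difference of 0.0932 log2 units after centring, and S100a13 was the 10th nearest to S100a1. S100a6 lay farther from S100a13, at 0.238.

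The leukocyte S100 genes were low, and none of the 3 passed the test. S100a8, the smaller calprotectin subunit, had 0.311, 4.83 and 1.97 FPKM in the DSS+DCA libraries, against 0.613, 2.77 and 1.77 FPKM in the DSS libraries. In both groups library 1 was lowest and library 2 highest. Means were 2.37 ± 2.28 FPKM in DSS+DCA and 1.72 ± 1.08 FPKM in DSS (SD, n = 3 each), and the log2 change of 0.14 ± 0.56 (SE) had a 95% interval from -1.18 to 1.46 and a limma adjusted p of 0.921.

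S100a9, the larger subunit, had 3.10, 6.25 and 3.37 FPKM in the DSS+DCA libraries, against 1.40, 7.51 and 4.20 FPKM in the DSS libraries. It shared with S100a8 the low library 1 and the high library 2 of each group. Its mean FPKM, 4.24 ± 1.75 in DSS+DCA and 4.37 ± 3.06 in DSS (SD, n = 3 each), was slightly lower with DCA while the fitted log2 change was 0.10 ± 0.47 (SE, limma adjusted p = 0.934). The ratio of S100a9 to S100a8 was 9.96, 1.30 and 1.72 in the DSS+DCA libraries and 2.28, 2.71 and 2.37 in the DSS libraries. The high value came from DSS+DCA library 1, where S100a8 was at its lowest, 0.311 FPKM.

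S100a4, a protein of leukocytes and fibroblasts that binds non-muscle myosin, had 6.86, 1.57 and 8.12 FPKM in the DSS+DCA libraries, against 4.35, 4.24 and 3.30 FPKM in the DSS libraries. DSS+DCA libraries 1 and 4 were above each DSS library and library 2 was below each of them. The log2 change was 0.20 ± 0.47 (SE, limma adjusted p = 0.854). Lymphocyte markers summed to 38.1, 12.5 and 41.3 FPKM in the DSS+DCA libraries and to 27.1, 11.2 and 32.7 FPKM in the DSS libraries. Fibroblast markers summed to 58.4, 20.5 and 50.8 FPKM in the DSS+DCA libraries and to 22.5, 40.3 and 29.2 FPKM in the DSS libraries. DSS+DCA library 2 was thus the lowest of its group for S100a4 and for both marker sums, and the part of these cells in the S100a4 level was not tested. Of 7 tested lymphocyte markers 6 had a fitted change above 0, 1 below 0 and 0 were called (Cd8a 0.58, Cd3d 0.49 and Cd79a 2.07 in log2 change, limma adjusted p from 0.229 to 0.275). The 1 below 0 was Jchain (-0.98), picked out after its values were seen, with 4.30, 4.23 and 12.8 FPKM in the DSS+DCA libraries and 19.8, 4.37 and 25.0 FPKM in the DSS libraries, where it made up much of the lymphocyte sum in DSS libraries 1 and 4. Of 9 fibroblast markers 5 had a fitted change above 0, 4 below 0 and 1 was called, the collagen-binding Dcn, which rose by 1.33 ± 0.20 (log2 change, SE, limma adjusted p = 0.049), while Vim, Lum and Thy1 had 0.77, 0.88 and 0.72 and limma adjusted p from 0.347 to 0.512. Of the squamous markers 2 of 12 were tested and 0 called, Sprr1a (-1.80) and Krt15 (-0.21), with limma adjusted p of 0.066 and 0.514.

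Neutrophil markers gave little to set beside calprotectin. Of 18 markers 10 were under 0.5 FPKM in each library, none was at 0 in all of them and 4 were tested, with 1 called. The granule enzymes Mpo and Elane were listed at 0 in 5 of 6 libraries each. Cd177, a neutrophil surface protein, fell to 5.82 ± 1.53 FPKM in DSS+DCA, against 31.6 ± 5.10 FPKM in DSS (SD, n = 3 each, log2 change -2.27 ± 0.23 SE, limma adjusted p = 0.027). Ly6g had 15.7, 72.3 and 1.79 FPKM in the DSS+DCA libraries and 15.9, 13.7 and 18.6 FPKM in the DSS libraries. The summed markers were 25.9, 84.6 and 8.54 FPKM in the DSS+DCA libraries and 54.9, 45.7 and 56.0 FPKM in the DSS libraries. Cd177 and Ly6g made up most of each sum. Cxcl2 (log2 change -0.40) and Retnlg (-0.36) had limma adjusted p of 0.475 and 0.674. Cxcl2 had 0.813, 1.22 and 0.543 FPKM in the DSS+DCA libraries and 0.706, 2.02 and 1.75 FPKM in the DSS libraries. Retnlg had 0, 1.48 and 0.270 FPKM in the DSS+DCA libraries and 0.257, 1.51 and 1.11 FPKM in the DSS libraries. Both were highest in library 2 of each group. Cd177 and Ly6g were lowest in DSS library 2. In the DSS+DCA group Ly6g was highest in library 2, while Cd177 there lay between libraries 1 and 4. Among 11 tested macrophage markers 7 had a fitted change above 0, 4 below 0 and 0 were called, and the sums of the list were 97.9, 73.5 and 92.4 FPKM in the DSS+DCA libraries and 70.2, 75.0 and 78.6 FPKM in the DSS libraries. Lyz2, C1qc and C1qb had log2 changes of 0.83, 0.43 and 0.47 and limma adjusted p of 0.177, 0.374 and 0.401. Cd14 had -0.96 (limma adjusted p = 0.287) and was lower in each DSS+DCA library than in each DSS library. The part of neutrophils and macrophages in the levels of S100a8 and S100a9 was not tested.

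Set against each other within a library, the epithelial S100 genes exceeded the leukocyte ones by a mean of 4.75, 3.79 and 3.90 log2 units in the DSS+DCA libraries and by 5.43, 4.44 and 5.13 in the DSS libraries. The mean difference was 4.15 log2 units in DSS+DCA and 5.00 in DSS, and DSS library 2 lay within the DSS+DCA range. Medians of the fitted log2 change were -0.60 for the 5 epithelial genes and 0.14 for the 3 leukocyte genes.

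**Figure D2:**
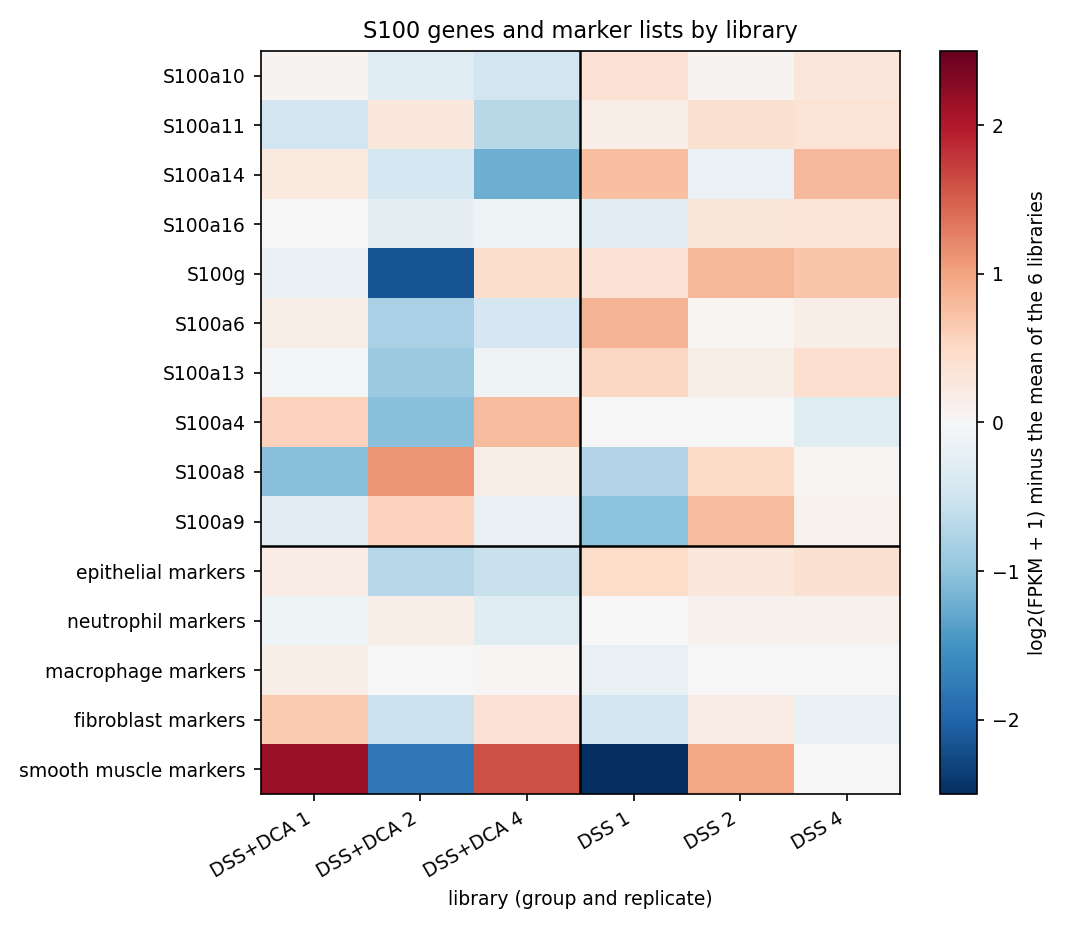
Centred log2(FPKM + 1) of the 10 S100 genes (rows above the line) and of 5 marker lists (mean over the list, rows below it) in each library, with DSS+DCA libraries left of DSS libraries. S100g (11.1 FPKM) and S100a4 (1.57 FPKM) are low in DSS+DCA library 2, where S100a8 (4.83 FPKM) is high.

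Because protein-coding transcripts made up a smaller share of DSS+DCA libraries 2 and 4, the changes were also read after rescaling each library to an equal sum over nuclear protein-coding genes. This moved the median of all tested genes by 0.32, to 0.23. S100a10, S100a11 and S100a6 then had log2 changes of -0.02, -0.15 and -0.26, S100a14 and S100g of -0.52 and -0.83, and S100a16 turned to 0.20. The leukocyte genes S100a4, S100a8 and S100a9 had 0.54, 0.48 and 0.46. Measured from the all-gene median, the epithelial S100 genes had a median of -0.38 after rescaling and of -0.51 before it, and the leukocyte genes of 0.25 and 0.23. With quantile normalization the epithelial genes had a median of -0.04, or -0.02 relative to all genes, so the lower level of the epithelial genes was not independent of scaling.

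**Figure D3:**
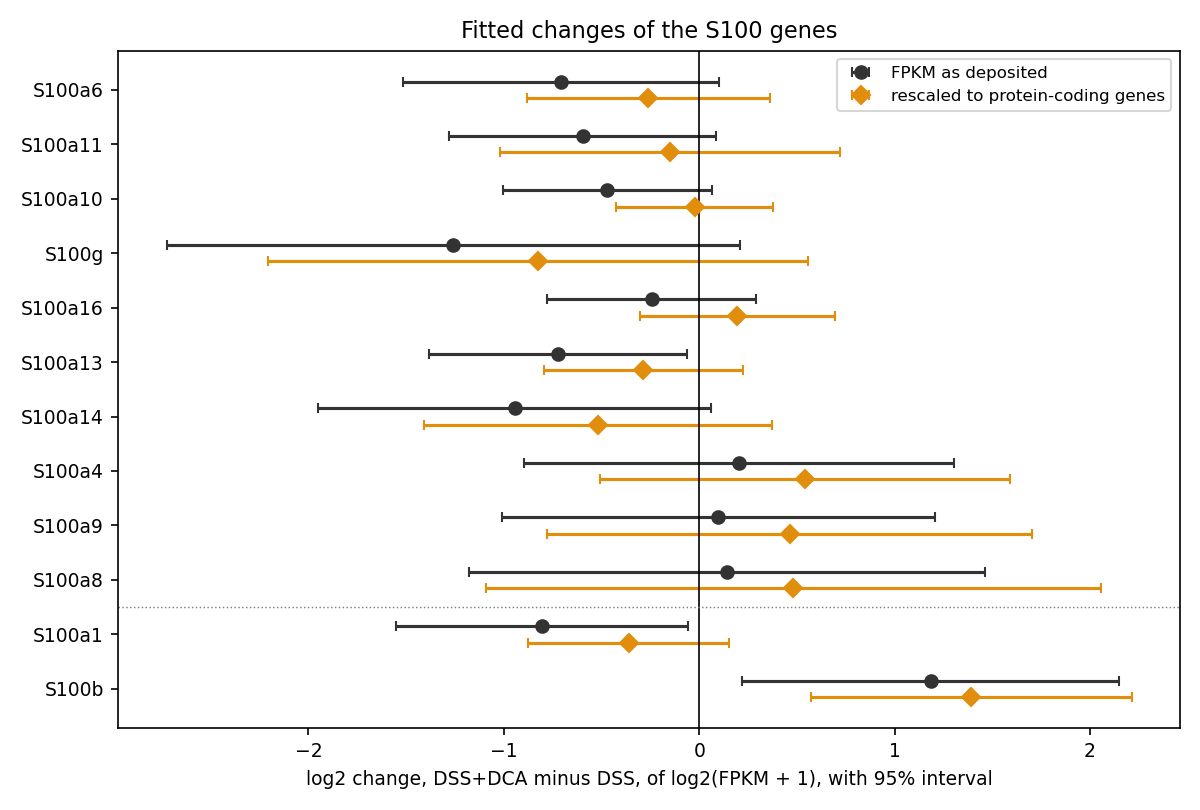
Fitted log2 change, DSS+DCA minus DSS, of log2(FPKM + 1) with its 95% interval for the 10 S100 genes and, under the dotted line, S100a1 and S100b, with FPKM as deposited (black) and after rescaling to protein-coding genes (orange). Deposited values of the 7 more abundant genes lie left of 0, and all 7 points shift to the right on rescaling, S100a16 past 0.

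Ratios between genes of 1 library do not depend on library scaling. Of 14 ratios, chosen with the values known, 1 did not overlap between groups. S100a10 relative to its partner Anxa2 was 1.54, 1.41 and 1.95 in the DSS+DCA libraries and 2.42, 2.27 and 2.41 in the DSS libraries. The means were 1.63 ± 0.279 in DSS+DCA and 2.37 ± 0.0863 in DSS (SD, n = 3 each), with a two-sided exact permutation p of 0.1, the smallest that 3 against 3 libraries allow, and 0.8 after Benjamini-Hochberg adjustment over the 14. Anxa2 itself had 228, 190.3 and 123 FPKM in the DSS+DCA libraries and 176, 154 and 167 FPKM in the DSS libraries, with overlap.

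The other ratios overlapped between groups. S100a10 relative to the epithelial surface protein Epcam was 0.563, 1.28 and 0.990 in the DSS+DCA libraries and 0.880, 0.886 and 0.895 in the DSS libraries. S100a11 relative to Epcam was 0.463, 2.31 and 1.03 in the DSS+DCA libraries and 0.933, 1.32 and 1.13 in the DSS libraries. DSS+DCA library 1 was the lowest and library 2 the highest for both, a wider spread than among the DSS libraries. Epcam itself had 622, 210 and 241 FPKM in the DSS+DCA libraries and 484, 394 and 450 FPKM in the DSS libraries, so its spread enters these ratios. Within the DSS+DCA group S100a10 itself was highest in library 1 and S100a11 in library 2. S100g relative to Epcam was 0.0750, 0.0528 and 0.298 in the DSS+DCA libraries and 0.141, 0.240 and 0.191 in the DSS libraries. S100a14 relative to Epcam was 0.0451, 0.0819 and 0.0392 in the DSS+DCA libraries and 0.0834, 0.0537 and 0.0929 in the DSS libraries. Two-sided exact permutation p-values of the overlapping ratios, each with n = 3 a group, ran from 0.2 to 1.

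**Figure D4:**
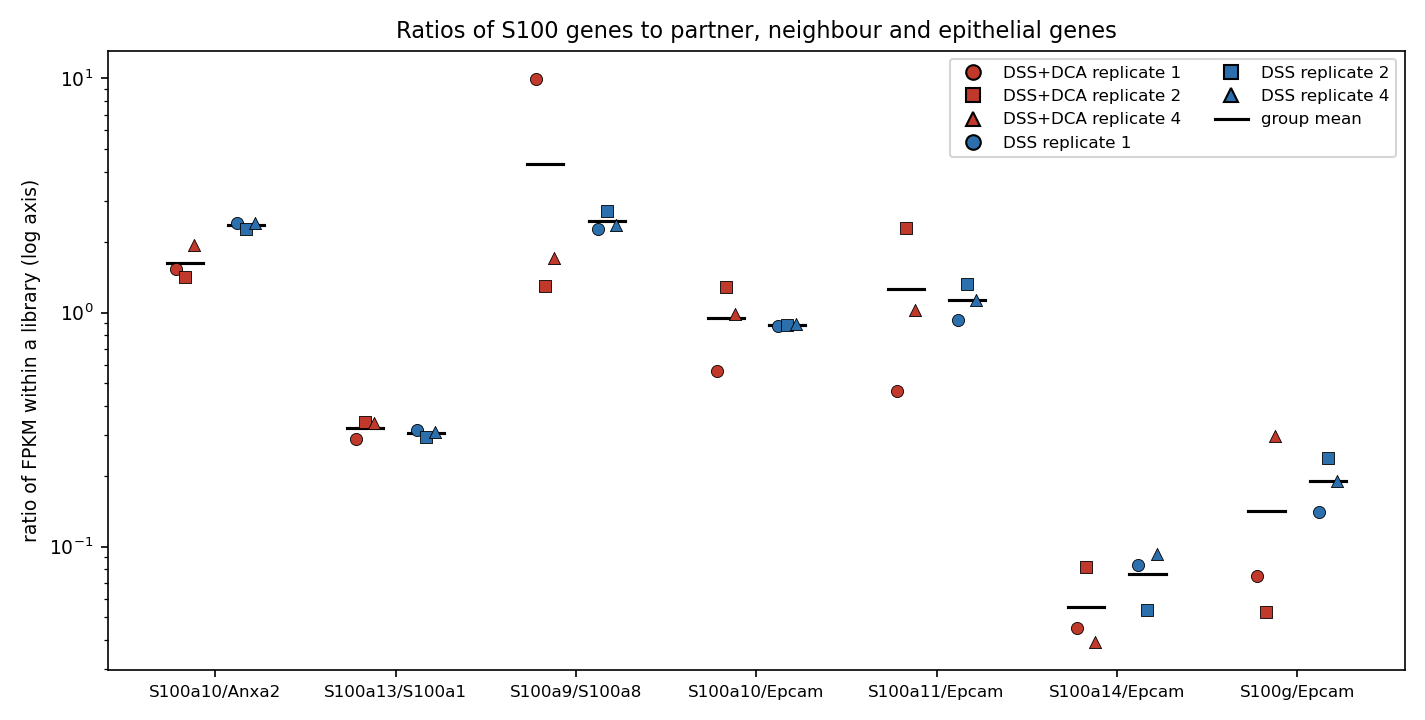
Ratios of FPKM within a library (log axis) for 7 of the 14 ratios, with DSS+DCA libraries in red left of DSS libraries in blue and a bar for the group mean. S100a10/Anxa2 is the one ratio with no overlap, 1.41 to 1.95 in DSS+DCA and 2.27 to 2.42 in DSS, and S100a13/S100a1 is the flattest.

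Of the proteins that S100 proteins bind, the annexins were set beside them first. None of 11 tested annexins was called, with 5 fitted changes above 0, 6 below 0 and a median log2 change of -0.22. Anxa9 (log2 change -1.11, limma adjusted p = 0.052), Anxa4 (-0.81, 0.160) and Anxa8 (-1.28, 0.186) were lower in each DSS+DCA library than in each DSS library, and Anxa6 (1.60, 0.160) was higher. In all 5 of the 11 annexins were separated, 3 lower and 2 higher (Anxa6 and Anxa5), where 23.6% of all tested genes were. Of 15 tested binding partners of S100 proteins 1 was called. Nucb2, a calcium-binding protein, fell to 1.92, 1.48 and 1.52 FPKM in the DSS+DCA libraries, against 4.81, 5.65 and 5.09 FPKM in the DSS libraries (log2 change -1.23 ± 0.16 SE, limma adjusted p = 0.035). Myh9, the heavy chain of non-muscle myosin bound by S100a4, had -0.56 (0.244), and Anxa5 had 0.75 (0.297).

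The receptor list gave 1 call among 8 tested genes. Cd36, a scavenger receptor for fatty acids that also binds calprotectin, rose to 1.56, 1.41 and 1.25 FPKM in the DSS+DCA libraries, against 0.195, 0.185 and 0.120 FPKM in the DSS libraries (log2 change 1.04 ± 0.14 SE, limma adjusted p = 0.035). The Toll-like receptor 4 group, the receptor of calprotectin, had Ly96 at -0.58 (0.181), Cd14 at -0.96 (0.287) and Tlr4 at -0.34 (0.385), log2 change first and limma adjusted p in brackets. Ager, the receptor for advanced glycation end products, had 2.25, 2.05 and 2.36 FPKM in the DSS+DCA libraries and 1.15, 2.29 and 2.19 FPKM in the DSS libraries.

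A list of genes of vitamin D and calcium transport or binding was set beside S100g, and none was called in any of 7 tested cases. The calcium pump Atp2b1 had a log2 change of -0.69 (limma adjusted p = 0.245), Cldn12 of 1.75 (0.287) and Calb2 of 1.92 (0.391). Vdr, the vitamin D receptor, had 48.9, 24.6 and 38.7 FPKM in the DSS+DCA libraries and 46.7, 43.3 and 46.5 FPKM in the DSS libraries (log2 change -0.33, limma adjusted p = 0.559). Cldn12 was above 3 FPKM in DSS+DCA libraries 1 and 2 alone, at 7.76 and 3.69. The ratio of S100g to Vdr was 0.953, 0.451 and 1.86 in the DSS+DCA libraries and 1.46, 2.18 and 1.85 in the DSS libraries, with overlap.

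S100b, the S100 protein of glia, was the one other family member with a mean above the filter beside S100a1, and it ran opposite to the epithelial genes. It had 4.90, 0.960 and 2.92 FPKM in the DSS+DCA libraries, against 0.171, 0.855 and 0.777 FPKM in the DSS libraries, and the groups did not overlap. Its log2 change was 1.18 ± 0.41 (SE, limma adjusted p = 0.236). It lies on chromosome 10 (76253853-76261159, plus strand), inside the span of Dip2a on the opposite strand. Enteric glia markers, S100b among them, summed to 62.6, 22.1 and 45.7 FPKM in the DSS+DCA libraries and to 31.9, 33.8 and 30.3 FPKM in the DSS libraries. Most of each sum came from 1 marker, Erbb3, picked out after its values were seen. Erbb3 had 36.9, 18.1 and 24.2 FPKM in the DSS+DCA libraries and 30.6, 22.8 and 26.0 FPKM in the DSS libraries. The sums thus say little about the other glia markers. Of the 6 markers 5 had a fitted change above 0, 1 below 0 and 0 were called. DSS+DCA libraries 1 and 4, highest for S100b, were also highest for the glia and smooth muscle sums, and the part of these cells in S100b was not tested. Among the smooth muscle markers Tagln, Smtn, Myl9 and Acta2 had log2 changes of 1.54, 1.00, 1.40 and 1.39 and limma adjusted p from 0.561 to 0.618, and 0 of 8 were called. Other S100 genes, S100a7a, S100z, S100a5, S100a3 and S100a2, had means under 0.5 FPKM over the 6 libraries.

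In the authors' deposited table, S100b had a fold of 4.87 (DSS+DCA over DSS) and a q-value of 0.0255 and was marked significant, as were 3.17% of all rows. None of the 10 S100 genes was marked in the authors' deposited table, where the smallest q-value was 0.263, for S100a14. The authors' deposited table and the limma fit thus differed on S100b.

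The genes whose pattern over the 6 libraries was closest to the mean of the epithelial S100 genes, among 5460 genes averaging 5 FPKM or more, were Ahsa1, Rpl39, Atp8b1, Dgat1 and Sil1. Their root mean square differences in centred log2(FPKM + 1) were 0.0653, 0.0694, 0.0731, 0.0737 and 0.0748. The S100 genes that make up the mean lay farther from it, between 0.181 for S100a10 and 0.773 for S100g. Closest to the mean of S100a8 and S100a9 were Khdc4, mt-Tf, Gpatch4, Acin1 and Nolc1, at 0.243, 0.283, 0.303, 0.332 and 0.353. These genes were likewise highest in library 2 of each group and stand on none of the marker lists. Most neutrophil and macrophage markers averaged under 5 FPKM and could not appear here. Their absence therefore does not show whether S100a8 and S100a9 followed them.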

How the data were processed

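RNA-seq libraries of colonic tissue from 3 DSS+DCA and 3 DSS samples were used. Poly(A) RNA was sequenced as paired reads with dUTP marking of the second strand, per the labels' protocols. The submitters' processing notes list StringTie 2.1.6, HISAT2 2.2.1, cutadapt 1.9, edgeR and DESeq2 with no roles or build. Each gene has an FPKM value in the deposited table, per the file headers, beside the authors' fold (a ratio of DSS+DCA over DSS), its log2, p-values and q-values, which were only quoted. At the best of many trial depths, low FPKM lay within 0.05 of whole reads for 38.0% to 41.2% of values per library. Chance gives 10% at a single fixed depth, which is not the share for the best of many. With most low values off whole reads, no counts were recovered.

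Values were taken as log2(FPKM + 1), and genes averaging 0.5 FPKM or more entered limma 3.58.1 (R 4.3.3, lmFit, trended eBayes), two-sided, Benjamini-Hochberg adjusted over 14611 genes, at 0.05. Log2 changes understate low genes. Within-library ratios were tested by exact permutation. The S100 genes and all gene lists were chosen with earlier results of these data known, so they support nothing independently. Beside the S100 genes, S100a1 and S100b, genes were named where called or among the 4 smallest p of a list. A gene that this rule takes is not reported here. Profiles were compared by root mean square difference. Positions came from GENCODE M21 and promoters from RefSeq by symbol. The alternatives tried were pseudocount 0.1, a filter of 2 FPKM or none, TMM-style and quantile scaling, protein-coding rescaling, array weights, the replicate number as block, an adjusted p under 0.1, a fold of at least 2, and leaving out each library.

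Tested on simulated data for DSS+DCA against DSS (14611 genes, 200 changed, 5 runs), recovery was 26.0% for changes of 1 log2 unit, 74.9% for 2 and 89.4% for 3, and runs averaged 8 false calls. Libraries were simulated as independent, and whether DSS library 4 is so in the data was not tested.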

Additional observations from a re-analysis of the deposited data

How the results depend on the processing

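None of the 10 S100 genes was called in any alternative but array weights, which called 6 (S100a6, S100a10, S100a11, S100a13 and S100a14 lower, S100a4 higher) and also S100a1 (lower) and S100b (higher). There DSS library 4 had a weight of 8.08 and DSS+DCA library 4 of 3.15, against 0.152 to 0.979 for the others. Over all genes, 82 calls became 2 with no filter, 132 with TMM-style scaling (32 higher, 100 lower), 6227 with array weights (1590 higher, 4637 lower) and 230 at an adjusted p under 0.1. Protein-coding rescaling gave 122 calls, 77 higher and 45 lower, against 19 and 63. The replicate number as a block left 1 gene called and 0 S100 genes. The labels state no pairing, and same-numbered deviations over all tested genes correlated at -0.144, -0.170 and 0.0153. With 3 libraries a group these correlations cannot decide whether the libraries were paired. The block lowered the SE of S100a8 from 0.56 to 0.25 and of S100a9 from 0.47 to 0.28. It also lowered those of S100a4, S100a6, S100a13, S100a14 and S100g, by less. It raised the SE of S100a10 from 0.23 to 0.27, and also those of S100a11 and S100a16. Leaving out 1 library gave 0 to 1246 calls, with 0 without DSS library 1 or 4 (1503 and 1412 genes at an unadjusted p under 0.05), 17 without DSS library 2, 10 without DSS+DCA library 4, 171 without DSS+DCA library 2 and 1246 without DSS+DCA library 1.

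Signs turned for S100a10 with quantile normalization (0.080), for S100a16 with quantile normalization (0.19) and protein-coding rescaling (0.20), and for S100a9 with array weights (-0.15). On leaving out 1 library S100a4 ran from -0.14 to 0.78, S100a8 from -0.38 to 0.70 and S100a9 from -0.39 to 0.52, while the other 7 S100 genes kept their sign. Vdr turned with quantile normalization (0.078) and protein-coding rescaling (0.11), and Ly6g with both (0.080 and 0.23) and on leaving out 1 library (-1.31 to 1.05). The cause was not tested. Groups of 3 libraries and unknown depth limit the precision, most for S100g, whose SE of 0.62 was the largest of the 10.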
